A study of Mus musculus with 15 samples.

Results

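The expression of 7 enzymes of cholesterol synthesis, *Hmgcs1*, *Idi1*, *Fdps*, *Sqle*, *Lss*, *Cyp51* and *Dhcr7*, was followed in laser-captured mouse Purkinje cells (PCs), the large output neurons of the cerebellar cortex, over the first postnatal weeks. The 7 genes were chosen by name and are 7 of 38561 gene identifiers counted, and all 7 were among the 14293 genes that passed the filter on low counts. The 15 samples came from male mice, labelled C56/BL6 and described as C57/BL6 in the study's methods, without a transgene or treatment, taken on the day of birth (P0) or on postnatal day 4, 8, 14 or 21 (P4 to P21), and each time point had 3 biological replicates. At P4 to P21 each sample was 1000 single PC soma cut from the section under a microscope, whereas at P0 clusters of PCs were cut because single cells were hard to isolate. Reads were counted per gene, and total counts on genes ranged from 3409371 to 7814951 per sample. Values are given as CPM, the counts scaled to a common library size after TMM normalization.

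Cholesterol is made from acetyl-CoA by a chain of enzymes, first to mevalonate, then through isoprenoids to squalene, and then through ring-shaped sterols to cholesterol. The transcription factor SREBP2 is held in the endoplasmic reticulum with its escort SCAP by the INSIG anchors, and when sterols are low SCAP carries it to the Golgi, where it is cut and set free. It drives the genes of most of these enzymes together. In the brain cholesterol is made locally, since plasma cholesterol hardly crosses the blood-brain barrier. Growing neurons, which add membrane to dendrites and synapses, and glia both make it.

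Of the enzymes, *Hmgcs1* (chromosome 13, 119690379 to 119708260, GRCm38) encodes HMG-CoA synthase, which makes the precursor of mevalonate. *Idi1* (chromosome 13, 8885501 to 8892451) encodes isopentenyl diphosphate isomerase and *Fdps* (chromosome 3, 89093588 to 89101959) farnesyl diphosphate synthase, both in the isoprenoid steps. *Sqle* (chromosome 15, 59315077 to 59331192) encodes squalene epoxidase and *Lss* (chromosome 10, 76531588 to 76557138) lanosterol synthase, which forms the first sterol rings. *Cyp51* (chromosome 5, 4081145 to 4104746) encodes the demethylase that acts on lanosterol, and *Dhcr7* (chromosome 7, 143823145 to 143848410) the reductase of the last step of one branch to cholesterol. All 7 are protein-coding, and each position is the whole annotated gene in GENCODE M21.

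The upstream sequences of *Hmgcs1* and *Lss* are shown because the first gene had the clearest fall over the time course and the second passed no test. Each is the 250 bases before the RefSeq start site in GRCm38.p6, 5′ to 3′ on the plus strand, at chr13:119690101-119690350 and chr10:76531355-76531604, and the last bases of the *Lss* window lie inside the GENCODE gene. Capitals mark the letters CCAAT on either strand (ATTGG on the strand shown) and CACNCCAC, the core of the element bound by SREBP.
Hmgcs1: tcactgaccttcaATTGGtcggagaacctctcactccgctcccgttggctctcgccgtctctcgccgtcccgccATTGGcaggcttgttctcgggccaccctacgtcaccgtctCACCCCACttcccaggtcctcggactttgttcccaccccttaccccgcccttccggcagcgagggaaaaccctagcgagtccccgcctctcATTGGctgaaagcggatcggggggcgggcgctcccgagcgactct
Lss: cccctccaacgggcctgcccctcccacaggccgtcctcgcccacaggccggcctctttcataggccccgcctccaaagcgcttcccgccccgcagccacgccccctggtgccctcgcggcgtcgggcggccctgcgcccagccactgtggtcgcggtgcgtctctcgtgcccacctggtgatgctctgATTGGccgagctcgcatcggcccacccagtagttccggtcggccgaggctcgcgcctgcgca

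RefSeq windows were matched for 5 of the 7 genes, *Hmgcs1*, *Idi1*, *Lss*, *Cyp51* and *Dhcr7*, and *Fdps* and *Sqle* had none. CCAAT, searched on both strands, was present in a window of all 5 genes and of 10 of 11 other enzymes of the pathway, and in 37.5% of the 27025 genes with a window. GGGCGG, the GC box, was likewise present in 5 of 5 and in 10 of 11, and in 35.4% of all genes. The core CACNCCAC was found in 1 of the 5, *Hmgcs1*, starting 136 bases before the start site. It was also in 1 of the 11 other enzymes, *Acat2*, and in 6.05% of all genes. A longer form of the sterol regulatory element that contains the core was in none of the 5 and in 0.226% of all genes. *Hmgcs1*, whose RNA fell clearly, and *Lss*, whose RNA passed no test, both hold CCAAT and the GC box. The core was in the *Hmgcs1* window but in no window of *Lss*, or of *Idi1*, *Cyp51* and *Dhcr7*, which each passed a test. Whether the core goes with a fall was not tested.

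The markers of PCs were present in every sample, but 1 of them, *Ppp1r17*, was scarce before P8. It was at 0.608 to 1.59 CPM at P0, 0.245 to 15.5 CPM at P4 and 324 to 419 CPM at P8. Summed over 6 genes, the PC markers rose from 4549 to 6007 CPM over the 3 P0 samples to 36886 to 46640 CPM at P21. All 6 rose (edgeR's quasi-likelihood test, adjusted p below 0.05). Markers of Bergmann glia and astrocytes, whose cell bodies lie beside PCs, summed over 8 genes to 4070 to 5643 CPM at P0, 7598 to 8827 CPM at P8 and 3066 to 4549 CPM at P21. Set against the PC markers, the glial sum was 67.8% to 104% in the P0 samples and 37.3% to 48.5% in the P8 samples. It was 16.5% to 19.7% at P14 and 6.57% to 12.3% at P21. The highest sums in any sample were 845 CPM for 5 oligodendrocyte markers (P21), 299 CPM for 3 granule neuron markers (P14), 121 CPM for 3 vascular markers (P0) and 25.5 CPM for 4 microglial markers (P4). Over all genes, counts differed between replicates by more than sampling noise, and each sample was kept as a separate library.

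The enzymes were expressed at a steady joint level from P0 to P8 and at a lower one from P14. The 7 genes together held 705 ± 58.5 CPM (SD, n = 3) at P0, 706 ± 72.9 CPM in the P4 samples and 644 ± 27.5 CPM at P8. They held 373 ± 48.5 CPM at P14 and 228 ± 34.3 CPM at P21. The sums of the single P14 samples, 326 to 422 CPM, lay below all P8 samples (614 to 667 CPM) and above all P21 samples (203 to 267 CPM). No test was made of these sums, of which *Hmgcs1* is the largest part in every sample. In captured cells of this kind, fewer cells of a type and less RNA per cell cannot be told apart.

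**Figure D1:**
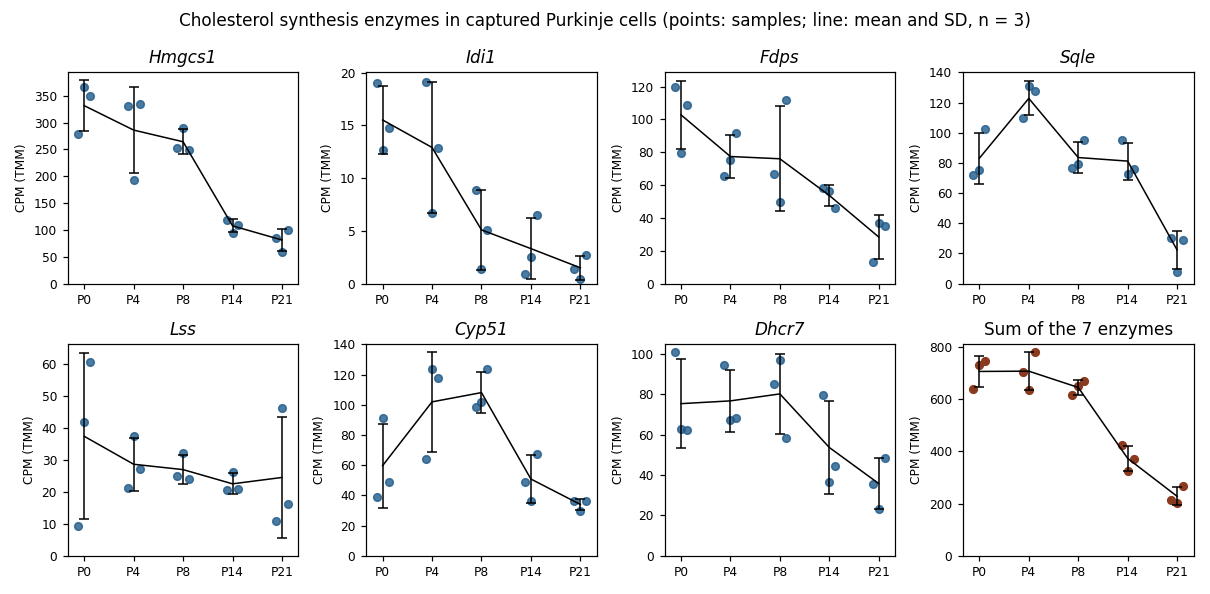
CPM (scaled counts on linear axes from 0) of the 7 enzymes and of their sum at the 5 time points, with 1 point per sample and a line through the means with SD bars (n = 3). The sum moves from 705 ± 58.5 CPM at P0 to 228 ± 34.3 at P21, *Hmgcs1* steps down between P8 and P14, *Sqle* between P14 and P21, and *Lss* spreads widely at P0 and P21.

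Tested over the whole time course with the time point as a factor (edgeR's quasi-likelihood F test, Benjamini-Hochberg adjustment over all genes tested), 4 of the 7 enzymes changed, *Hmgcs1*, *Sqle*, *Cyp51* and *Fdps*. Over all genes tested, 19.3% were called. No enzyme was called from P0 to P4 or from P4 to P8, steps in which 1.97% and 1.13% of all genes were called. Between P0 and P21 5 of the 7 fell, *Hmgcs1*, *Sqle*, *Fdps*, *Idi1* and *Dhcr7*, against 10.6% of all genes, and none rose. The median log2 fold change of the 7 was -1.85, and that of all genes was -0.11. In 6 of the 7, all but *Lss*, every P21 sample lay below every P0 sample, which held for 18.2% of all genes. The comparisons share samples where they share a time point. Without P0 replicate 1, P21 replicate 1 or P21 replicate 2, the count of 5 went down to 3 in each case, as *Idi1* and *Dhcr7* were lost. *Dhcr7* lost its call in 8 of the 15 fits that left out 1 sample, these 3 among them.

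*Hmgcs1* was the most abundant of the enzymes and its largest step was between P8 and P14. Its samples held 278, 367 and 349 CPM at P0, 330.2, 193 and 335 CPM at P4 and 253, 291 and 248.8 CPM at P8. They then held 119, 94.8 and 109 CPM at P14 and 85.1, 58.9 and 99.6 CPM at P21. All samples of P0 to P8 lay above all samples of P14 and P21, with P4 replicate 2 the lowest of the early ones. The gene changed over the time course (edgeR's quasi-likelihood test, adjusted p = 2.7e-05) and fell between P8 and P14 by 1.30 ± 0.24 on the log2 scale (standard error; adjusted p = 0.0072). It was the only one of the 7 called in that step, in which 2.67% of all genes were called and 1.38% fell. Every P14 sample lay below every P8 sample in *Hmgcs1* and *Cyp51*, and in 12.7% of all genes. From P0 to P21 *Hmgcs1* fell by 2.03 ± 0.25 on the log2 scale, or 4.08-fold (adjusted p = 1.5e-05).

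*Sqle*, the epoxidase that commits squalene to sterols, was still within its P0 to P8 range at P14. It was at 71.9, 75.0 and 102 CPM at P0, 109.9, 131 and 128 CPM at P4, 76.4, 79.0 and 95.3 CPM at P8 and 95.2, 72.6 and 75.8 CPM at P14, and then at 30.4, 7.84 and 28.7 CPM at P21. All P4 samples were above all P0 and all P8 samples, as was so for 9.12% of all genes between P0 and P4 and, in the other direction, for 8.3% between P4 and P8, but neither step passed the test (adjusted p = 0.54 and 0.64). All P21 samples were below all others.

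*Sqle* changed over the time course (edgeR's quasi-likelihood test, adjusted p = 0.0030) and fell from P0 to P21 by 1.90 ± 0.38 on the log2 scale, or 3.74-fold (adjusted p = 0.0016). The step from P14 to P21 was a log2 fold change of -1.87 ± 0.38 (edgeR, adjusted p = 0.049), with 0.329% of all genes called of which the falling ones made 0.266%. The call was lost when any of the 15 samples was left out (adjusted p from 0.056 to 0.19), while the log2 fold change then ranged from -2.14 to -1.46. Every P21 sample lay below every P14 sample in *Sqle* and *Fdps*, and in 9.04% of all genes. P21 replicate 2, with 37 counts of *Sqle*, was the lowest.

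**Figure D2:**
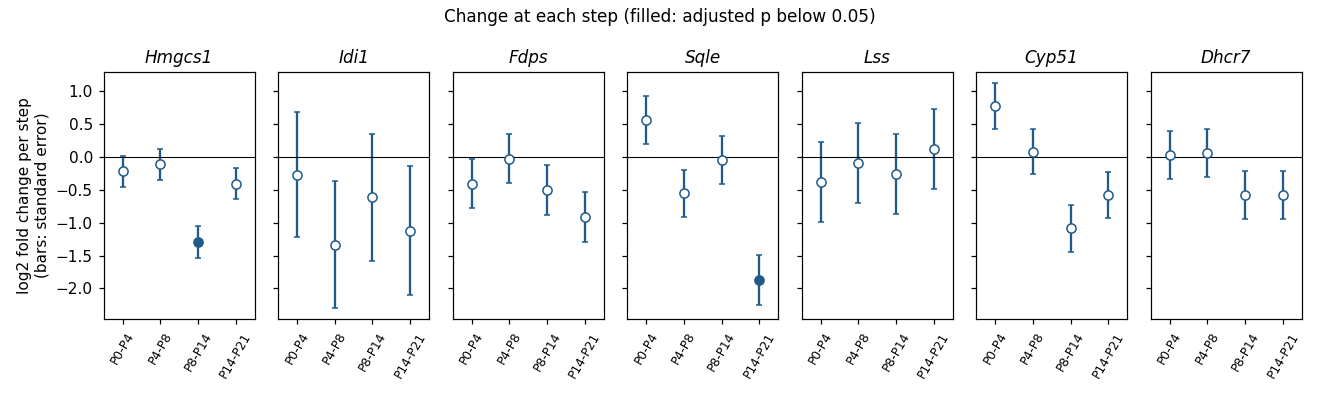
Log2 fold change of each enzyme between neighbouring time points from the edgeR fit, with standard errors as bars and filled points for an adjusted p below 0.05. *Hmgcs1* is called between P8 and P14 (-1.30) and *Sqle* between P14 and P21 (-1.87), and no enzyme is called in either earlier step.

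*Fdps*, which joins isoprenoid units into farnesyl diphosphate, was at 119.6, 79.8 and 109 CPM at P0, 65.2, 75.3 and 91.7 CPM at P4 and 66.7, 49.6 and 112 CPM at P8. At P14 it was at 58.3, 56.5 and 46.3 CPM, and at P21 at 13.02, 36.9 and 35.2 CPM. The samples of neighbouring time points overlapped up to P14, and all P21 samples were the lowest. The change over the time course had an adjusted p of 0.022 by edgeR, 0.052 without P21 replicate 1 and 0.065 without the P0 time point, and the fall from P0 to P21 was 1.85 ± 0.39 on the log2 scale (adjusted p = 0.0024). *Gm3571*, a processed pseudogene with 98.9% identity to *Fdps* over 1062 bases, took 473 counts at P0 and 134 at P21 beside the 1562 and 433 of *Fdps*, so that reads may be divided between them.

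*Idi1* was scarce, with 2 to 99 counts per sample. It was at 19.0, 12.7 and 14.8 CPM at P0, 19.1, 6.73 and 12.8 CPM at P4, 8.87, 1.34 and 5.06 CPM at P8, 0.920, 2.49 and 6.53 CPM at P14 and 1.34, 0.424 and 2.72 CPM at P21. The P21 samples lay below every P0 and P4 sample but overlapped P8 and P14. The time course test was not passed (edgeR, adjusted p = 0.10), whereas P21 against P0 was, with a log2 fold change of -3.34 ± 1.05 (adjusted p = 0.030). The fall rests on counts of 4, 2 and 17 at P21, and it was not called without P0 replicate 1, P21 replicate 1 or P21 replicate 2 (adjusted p up to 0.11). The processed pseudogene *Gm13502* is identical to *Idi1* over 684 bases and had up to 27 counts, and reads that match both places equally are not unique and were not kept.

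*Cyp51*, the lanosterol demethylase, had its highest means at P4 and P8. Its samples held 39.2, 91.3 and 48.6 CPM at P0, 64.0, 124 and 118 CPM at P4, 98.6, 102 and 124 CPM at P8, 49.0, 36.2 and 67.4 CPM at P14 and 36.4, 29.7 and 36.0 CPM at P21. All P14 and P21 samples lay below all P8 samples, and the P0 samples overlapped both the P4 and the P14 samples. The gene changed over the time course (edgeR, adjusted p = 0.010).

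For *Cyp51*, the difference from P0 to P4 (log2 fold change 0.77 ± 0.35, edgeR adjusted p = 0.32) and the difference from P8 to P14 (-1.09 ± 0.35, adjusted p = 0.13) did not pass the test, and neither did P21 against P0 (-0.81 ± 0.36, adjusted p = 0.11). Against P4 in place of P0, a comparison chosen after seeing the data, *Cyp51* fell by 1.58 ± 0.36 on the log2 scale (adjusted p = 0.0058). In that comparison 4 of the 7 enzymes fell, *Hmgcs1*, *Sqle*, *Fdps* and *Cyp51*, against 8.93% of all genes. The exons of *Cyp51* overlap those of *Akap9* on the other strand by 166 bases, and the libraries did not mark strand.

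*Dhcr7* was at 101, 62.9 and 62.2 CPM at P0, 94.4, 67.4 and 68.4 CPM at P4, 85.1, 96.9 and 58.6 CPM at P8, 79.9, 36.8 and 44.3 CPM at P14 and 35.7, 23.3 and 48.4 CPM at P21. The P21 samples lay below all samples of P0 to P8 and overlapped P14. The time course test was not passed (edgeR, adjusted p = 0.13). The log2 fold change from P0 to P21 was -1.07 ± 0.37 with an adjusted p of 0.048, just inside the threshold, and it lost the call in 8 of the 15 fits that left out 1 sample (adjusted p up to 0.18).

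The samples of *Lss* overlapped in every comparison made. It was at 9.42, 41.9 and 60.6 CPM at P0, 21.1, 37.4 and 27.2 CPM at P4, 24.8, 32.0 and 23.9 CPM at P8, 20.4, 26.2 and 20.7 CPM at P14 and 11.02, 46.2 and 16.2 CPM at P21. The lowest and the highest samples both belong to P0, and P21 replicate 2 is above P0 replicates 1 and 2. The time course had an adjusted p of 0.89 and P21 against P0 one of 0.53 by edgeR, with a log2 fold change of -0.60 ± 0.61. Without P21 replicate 2 this log2 fold change was -1.44 (adjusted p = 0.16).

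Per length, *Hmgcs1* was the most abundant enzyme at both ends of the course. RPKM, the read count scaled to exon length and to the sample's total on genes, was 80.7 ± 11.9 (SD, n = 3) for *Hmgcs1* at P0, followed by *Fdps* at 27.3 ± 5.34. *Sqle* (16.7 ± 3.41), *Cyp51* (15.1 ± 7.11) and *Dhcr7* (14.5 ± 4.16) did not differ beyond their spread, nor did *Idi1* (4.94 ± 0.996) and *Lss* (3.87 ± 2.69). RPKM depends on the length used, here all annotated exons of a gene, 3505 bases for *Idi1* and 10787 for *Lss*. In CPM the 2 genes were at 15.5 ± 3.23 and 37.3 ± 25.9 at P0. At P21 *Hmgcs1* was at 15.5 ± 4.27 RPKM. *Cyp51* (6.74 ± 0.895), *Fdps* (5.87 ± 2.73), *Dhcr7* (5.403 ± 2.004) and *Sqle* (3.54 ± 2.03) followed, each overlapping its neighbour in this order within the spread, while every *Cyp51* sample lay above every *Sqle* sample. *Idi1* was at 0.377 ± 0.297 RPKM.

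*Hmgcs1* and *Sqle* were called in different steps, and whether their timing differs was not tested. The ratio of *Hmgcs1* to *Sqle* in RPKM was 3.15 to 4.44 in the P8 samples, 1.51 to 1.74 at P14 and 3.38 to 9.07 at P21. At P0 it was 4.12 to 5.91 and at P4 1.78 to 3.63, with P4 replicate 2 (1.78) next to the P14 samples. These ratios are given as a description. The share of *Hmgcs1* in the summed RPKM of the 7 enzymes was 49.3% ± 3.94 at P0, 42.4% ± 8.64 at P4 (32.7% in replicate 2), 43.4% ± 4.52 at P8, 31.4% ± 0.542 at P14 and 39.0% ± 4.89 at P21 (SD, n = 3).

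Across the 15 samples, Pearson's r between log2 CPM values of the 21 pairs of enzymes ranged from -0.15 (*Lss* and *Dhcr7*) to 0.80 (*Hmgcs1* and *Dhcr7*), with a median of 0.57, and 13 pairs exceeded 0.5. After each gene's time point means were removed, the median was 0.037 and r ranged from -0.60 to 0.53, with 10 of the 21 pairs below 0. The points share libraries, depth and time, and these values are descriptions.

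Other enzymes of the pathway, from a list of 13, fell in part. From P0 to P21 5 of the 13 fell and 1 rose (edgeR, adjusted p below 0.05), against 10.6% and 12.2% of all genes, and the median log2 fold change of the 13 was -1.07. The fallers were *Acat2*, *Mvk*, *Pmvk*, *Fdft1* and *Msmo1*, and the same 6 genes changed over the time course, beside 19.3% of all genes. *Fdft1*, squalene synthase, just before *Sqle* in the chain, was at 156, 138 and 168 CPM at P0 and 28.0, 20.97 and 29.0 CPM at P21, and fell by 2.57 ± 0.41 on the log2 scale (edgeR, adjusted p = 2.1e-04). *Acat2*, the thiolase ahead of *Hmgcs1*, fell by 2.51 ± 0.38 (edgeR, adjusted p = 1.4e-04).

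*Mvk*, mevalonate kinase, fell by 2.62 ± 0.56 on the log2 scale, *Pmvk*, the next kinase, by 1.07 ± 0.26, and *Msmo1*, a sterol oxidase after *Cyp51*, by 2.18 ± 0.37 (edgeR, adjusted p = 0.0026, 0.0063 and 3.9e-04). *Ebp*, the sterol isomerase, moved the other way. It was at 12.9, 22.6 and 16.0 CPM at P0 and 48.7, 46.2 and 84.9 CPM at P21, and rose by 1.80 ± 0.39 on the log2 scale (edgeR, adjusted p = 0.0030). Against P4 the 5 fallers also fell, beside 8.93% of all genes, with *Mvk* at an edgeR adjusted p of 0.048. *Ebp* was not called against P4 (log2 fold change 0.83, edgeR adjusted p = 0.16). No gene of this list was called in a step between neighbouring time points.

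**Figure D3:**
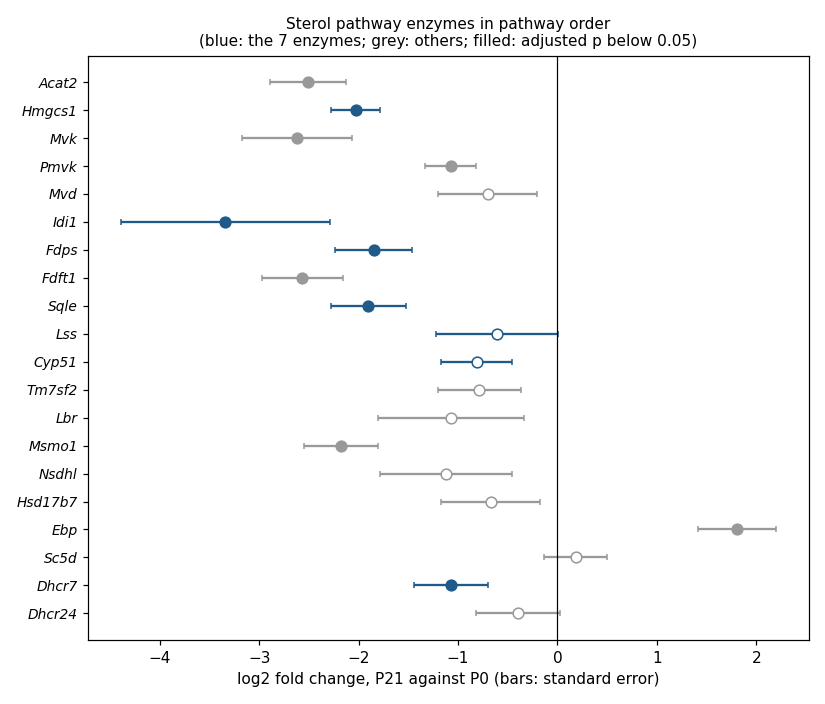
Log2 fold change of P21 against P0 with standard errors for the 7 enzymes (blue) and 13 other enzymes of the pathway (grey), listed from the first step at the top to the last at the bottom, with filled points for an adjusted p below 0.05 in edgeR. Of the 7, 5 are filled and left of 0, and *Ebp* (1.80) is the only filled point right of 0.

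Of 7 genes that control the pathway, 1 fell and 1 rose between P0 and P21, which is near the 10.6% and 12.2% of all genes. *Srebf2*, which encodes SREBP2, fell, and *Insig2*, which encodes an anchor that holds it back, rose. *Srebf2* was at 32.3, 64.1 and 44.0 CPM at P0, 66.7, 56.2 and 78.8 CPM at P4 and 8.01, 14.2 and 22.4 CPM at P21. It fell by 1.64 ± 0.53 on the log2 scale against P0 (edgeR, adjusted p = 0.035) and by 2.16 ± 0.54 against P4 (adjusted p = 0.010). All its P21 samples were below all P0 and P4 samples.

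*Insig2* was at 53.7, 44.6 and 7.09 CPM at P0 and 141, 107 and 148 CPM at P21, and rose by 1.91 ± 0.53 on the log2 scale (edgeR, adjusted p = 0.015). Against P4 it was not called (log2 fold change 1.13 ± 0.52, adjusted p = 0.16). The other 5 control genes passed neither the time course test nor P21 against P0.

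Of 8 genes of fatty acid synthesis, which draws on the same acetyl-CoA, 2 rose and 1 fell between P0 and P21, beside 12.2% and 10.6% of all genes, and their median log2 fold change was -0.17. The single fall is near the share over all genes. *Elovl6*, a fatty acid elongase, was at 74.4, 103 and 48.0 CPM at P0 and 312, 392 and 365 CPM at P21, and rose by 2.25 ± 0.32 on the log2 scale (edgeR, adjusted p = 7.2e-05). *Me1*, malic enzyme, a source of NADPH, rose by 1.52 ± 0.36 (adjusted p = 0.0051). *Fasn*, fatty acid synthase, named here after its values were seen, fell by 1.46 ± 0.38 (edgeR, adjusted p = 0.011) but passed neither the time course test (adjusted p = 0.052) nor P21 against P4 (adjusted p = 0.089).

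**Figure D4:**
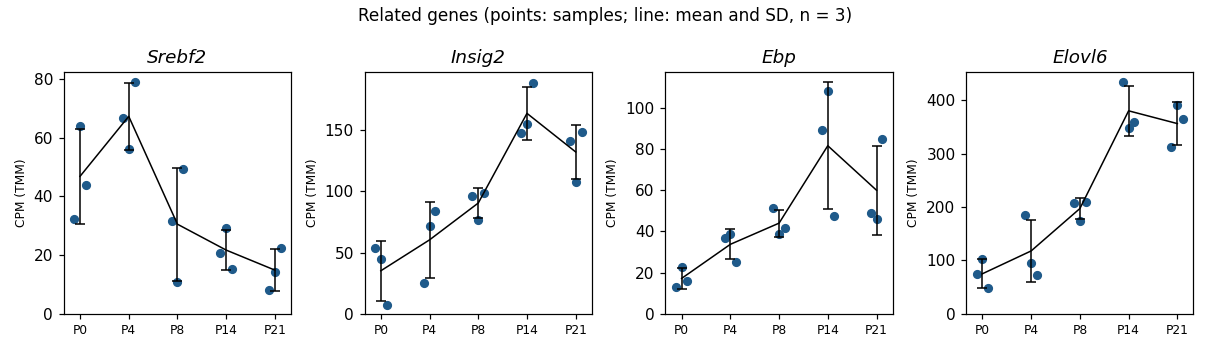
CPM of *Srebf2*, *Insig2*, *Ebp* and *Elovl6* at the 5 time points on linear axes from 0, with 1 point per sample and a line through the means with SD bars (n = 3). *Srebf2* is highest at P4 (56.2 to 78.8 CPM) and lowest at P21, while the other genes are higher at P21 than at P0.

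The sum of the 8 glial markers was higher at P8 than at P0 and lower at P21. Its decline from P8 to P14 rests on *Fabp7*, a marker of immature and Bergmann glia. *Fabp7* was at 4334 to 4893 CPM at P8, 941 to 1300 CPM at P14 and 125 to 253 CPM at P21. It fell in the same step as *Hmgcs1*, from P8 to P14, by 2.07 ± 0.25 on the log2 scale (edgeR, adjusted p = 4.9e-04), and was the only glial marker called there. The sum of the other 7 markers, taken without *Fabp7* as chosen after seeing the data, was higher at P14 than at P8. *Slc1a3* was its largest part, with means of 2388 CPM at P8 and 3522 CPM at P14. By mean *Slc1a2*, *Gdf10* and *Hopx* were also higher at P14. In contrast, *Gfap* (281 to 95.5 CPM), *Aldh1l1* (188 to 103 CPM) and *Sox9* (136 to 109 CPM) were lower. At P21 the sum of these 7 markers was lower again, so the decline from P14 to P21 does not rest on *Fabp7* alone. Together the 7 held 1911 to 2454 CPM at P0, 3264 to 3934 CPM at P8, 4525 to 5219.7 CPM at P14 and 2942 to 4296 CPM at P21.

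Between P0 and P21 *Fabp7* fell by 3.85 ± 0.27 on the log2 scale and *Aldh1l1* by 1.85 ± 0.38, while *Slc1a3*, *Slc1a2* and *Hopx* rose (edgeR, adjusted p below 0.05), and the median log2 fold change of the 8 markers was 0.52. None of these 8 markers was at 0 in every sample of a time point. The part of glial RNA in the enzymes' levels was not tested.

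**Figure D5:**
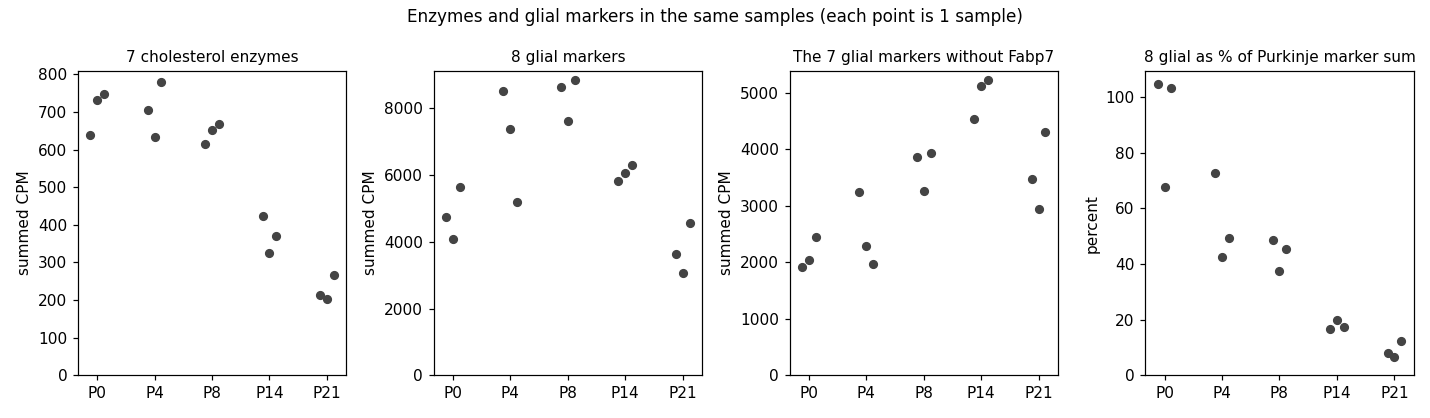
Summed CPM of the 7 enzymes, summed CPM of 8 Bergmann glia and astrocyte markers, the same without *Fabp7*, and the sum of all 8 as a percentage of the sum of 6 PC markers, with 1 point per sample at each time point and axes from 0. This percentage runs from 67.8% to 104% at P0 down to 6.57% to 12.3% at P21. The PC marker sum below it itself rises from 4549 to 6007 CPM at P0 to 36886 to 46640 CPM at P21. By mean, the sum of the 8 markers is highest at P4 and P8 and that of the 7 without *Fabp7* at P14.

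The genes whose course was most like that of the enzymes were found among 9699 genes with a mean of at least 10 CPM, by Pearson's r over the 15 samples with the mean of the 7 standardized profiles. The 5 closest were *Dcx* (r = 0.977), *Sdc3* (0.971), *Ncan* (0.971), *Fabp5* (0.970) and *Hmgb1* (0.965). *Dcx*, doublecortin, a microtubule protein of immature neurons, went from a mean of 662 CPM at P0 to means of 264 CPM at P8, 28.4 CPM at P14 and 0.573 CPM at P21. *Ncan*, neurocan, a proteoglycan of the developing matrix, was at 595, 536, 78.2 and 19.5 CPM at the same times, beside 705, 644, 373 and 228 CPM for the sum of the 7 enzymes. Among the listed genes, r ranged from -0.77 (*Me1*) to 0.88 (*Acat2*). Within that range it was 0.77 for *Srebf2*, -0.56 for *Ebp*, -0.59 for *Insig2* and -0.75 for *Elovl6*.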

How the data were processed

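Laser-captured PCs were sequenced at 5 time points (15 samples, 3 biological replicates each). The authors trimmed reads (cutadapt 1.2.1 per the submitters' processing notes), aligned them to GRCm38/mm10 with GSNAP, discarded reads that mapped more than once and made the counts with HTSeq 0.5.3p9 from reads lying wholly within a feature. The deposited values are raw whole-number counts per Ensembl gene, and the annotation release is not given in the sources used here. Libraries were made with a kit that does not mark strand from very little RNA. Tallies outside genes, 18.2% to 31.0% of the reads tallied in a sample, were set aside.

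Genes were named from GENCODE M21 (36723 of 38561 identifiers), whose exons gave lengths. The main test was edgeR 4.0.16 (R 4.3.3), a quasi-likelihood F test on the time point as a factor with TMM, filterByExpr by time point (14293 genes) and Benjamini-Hochberg adjustment at 0.05, and neighbouring time points and P21 against P0 were contrasts of the same fit of all 15 samples, two-sided. Standard errors came from the fold change and its F statistic. The common biological coefficient of variation was 0.705. Alternatives used DESeq2 1.42.0, limma-voom (limma 3.58.1), RLE size factors, no filter on low counts, the replicate number as a block, the day as a number, no P0 time point and each sample left out in turn. Tables and figures used Python 3.11.15, pandas 2.3.3, numpy 2.4.6, scipy 1.17.1 and matplotlib 3.10.9. Promoter windows came from RefSeq (GRCm38.p6).

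The 7 enzymes, the lists and the markers were chosen with earlier results of these data known. All 7 enzymes are described, list genes are named where they pass the time course test, and the 5 genes of closest course were taken by correlation. Some genes of the pathway are not reported here. The precision of a gene is limited by 3 samples per time point, and 3 counts correspond to 0.388 to 1.001 CPM after TMM scaling, which covers counting error only.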

Additional observations from a re-analysis of the deposited data

How the results depend on the processing

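The number of the 7 enzymes called over the time course stayed between 3 and 6 in all settings, with 4 as reported, and *Hmgcs1*, *Sqle* and *Cyp51* kept the call in each. *Idi1* was gained with DESeq2 (adjusted p = 0.016) and with the day as a number (0.0048), which also gained *Dhcr7* (0.021). The call of *Hmgcs1* from P8 to P14 held in all settings, including each sample left out. From P14 to P21 the count of 1 became 0 with limma-voom, with RLE size factors, with the replicate number as a block, and in all 15 fits without 1 sample (range 0 to 0), which is the call of *Sqle* (log2 fold change -1.94 and adjusted p = 0.058 under the replicate block). From P0 to P21 the count of 5 became 3 without a filter on low counts, where *Idi1* and *Dhcr7* had adjusted p of 0.053 and 0.055, and ranged from 3 to 5 without 1 sample. *Dhcr7* was also lost with limma-voom (0.071). Against P4 in place of P0, chosen after seeing the data, 4 enzymes fell, with *Cyp51* gained and *Idi1* and *Dhcr7* not called (both 0.053), against 8.93% of all genes. The replicate block changed no other call of the 7. Deviations from the time point means were not shared by samples of equal number (mean r of -0.0033 against 0.0017 for other numbers, and 3 of 15 samples closest to their own number), so the numbers were not taken to pair samples.

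Signs turned only in differences that passed no test, and the cause was not tested. From P0 to P4 *Dhcr7* (log2 fold change 0.025 as reported) became -0.030 with DESeq2, -0.0017 with limma-voom and -0.030 with RLE, and *Lss* became 0.057 with limma-voom. From P14 to P21 *Lss* became -0.064 with limma-voom and -0.082 with the replicate block. Without 1 sample, the ranges that crossed 0 from P0 to P4 were -0.38 to 0.0052 (*Hmgcs1*), -0.69 to 0.044 (*Idi1*), -0.87 to 0.12 (*Lss*) and -0.18 to 0.26 (*Dhcr7*). From P4 to P8 they were -0.33 to 0.0070 (*Hmgcs1*), -0.42 to 0.19 (*Fdps*), -0.27 to 0.16 (*Lss*), -0.17 to 0.25 (*Cyp51*) and -0.11 to 0.24 (*Dhcr7*). From P8 to P14 they were -1.56 to 0.061 (*Idi1*) and -0.17 to 0.072 (*Sqle*), and from P14 to P21 -0.72 to 0.47 (*Lss*). Over all genes, DESeq2 called 770 rather than 281 from P0 to P4, 489 rather than 162 from P4 to P8, 837 rather than 382 from P8 to P14 and 168 rather than 47 from P14 to P21, and limma-voom 310 and 600 in the middle steps. Without 1 sample these counts ranged from 186 to 302, 74 to 201, 163 to 441 and 24 to 68 in the 4 steps, so the shares of all genes given beside the enzymes move likewise.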
